A study of Cyprinus carpio with 18 samples.

Results

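Organ formation was compared with cleavage in small RNA libraries made from entire common carp (Cyprinus carpio) embryos, using 6 of the 18 libraries of a developmental series. The organ formation group held 3 libraries of wild-type embryos collected 20 h after fertilization. The cleavage group held 3 libraries of wild-type embryos collected 2 h after fertilization. All fish belonged to the FFRC No.2 strain, a farmed strain bred by selection from several carp varieties, and all embryos came from natural spawning. Per the labels' protocols, RNA of a stage was pooled in equal amounts before library preparation. The labels do not say whether the libraries of 1 stage stem from separate spawnings, so p-values describe the spread between libraries only, and that spread may be technical. Whole embryos were used, so a larger number of cells of a type and more of a microRNA per cell cannot be told apart.

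MicroRNAs are short RNAs that guide Argonaute proteins to messenger RNAs and lower their translation and stability. Bases 2 to 8 from the 5′ end, the seed, do most of the pairing with a target, and microRNAs with the same seed are counted as a family. A cleavage embryo lives on RNA laid down in the egg by the mother. In fish, miR-430 is transcribed when the embryo's own genome is switched on and helps to clear maternal messenger RNA. By organ formation the embryo has somites, a neural tube and forming organs, and microRNAs of muscle, nervous system and skin, together with those encoded inside the Hox gene clusters, are known to be made in vertebrate embryos.

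The files listed 2888 microRNAs over the series, of which 2742 were predicted and known only by sequence, while the rest had a carp microRNA name, written here with no species prefix. The sequences of predicted microRNAs on which the results below turn are printed here because they carry no name. They are in the DNA letters of the files, 5′ to 3′, with the seed in capitals. They were not compared with a catalogue of known microRNAs. Some may therefore be arms, variants or family members of microRNAs known by name. R1 to R5 had the largest rises and F1 to F5 the largest falls among those that passed the test, had libraries apart by stage and a mean of at least 100 scaled CPM (defined below) at 1 of the stages. S1 was among the 6 most abundant microRNAs at both stages. The others were chosen after their values were seen, the B sequences because they were listed at both stages and passed the test and the V sequences because they shared a seed with another sequence that passed.
R1: aAAGTGCTatcaagttggggta
V1: aAAGTGCTatcaagttcgggta
V2: aAAGTGCTatcaagttggggtaaa
V3: aAAGTGCTatcaagttggggtaat
R2: gCTTTGACgatgttgcactact
R4: gCTCTGACgatgttgcactact
R3: aGGTTGGGattggtagcaatgct
R5: cCTATTCGggatgacttggttc
B5: aCCATCGAccgttgattgtacc
B6: aCCATCGAccgttgactgtacc
B8: aCCATCGAccgttgattgtgcc
B9: tGTGCAAAtccatgcaaaactcg
B11: tGTGCAAAtccacgcaaaactcg
B2: tGCTCAGTagtcagtgtagatcc
F1: aAGCTGGTggttatagcagtg
F2: tCCATAAAgtagaaagcacta
F3: gAGATGTActgtccttggacgagg
F4: tGAATGACagtgtagcgatgc
F5: tGCAAGATctctgattgtacgg
V4: tGCAAGATctctgattgtacag
B1: tAACGGAAcccataatgcagctg
B3: aGGCAGTGtagttagttgattac
S1: gTGTGGAGagccgtttgttac

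The organ formation libraries held 79712, 60779 and 141161 counts and the cleavage libraries 135739, 94306 and 101777 counts, so depth was similar at both stages. Between pairs of organ formation libraries the chi-square per degree of freedom was 35.25 to 78.1, and between pairs of cleavage libraries 67.99 to 146.4, well above counting noise. Cleavage replicate 3 stood apart, with 76.1% of its counts in miR-738 and a TMM scaling factor of 0.8826, against 1.587 and 2.192 in the other cleavage libraries. Among the organ formation libraries the factors were 1.814, 1.489 and 1.718. Cleavage replicate 1 was the highest of the 6 libraries in counts of let-7a, miR-143, miR-99 and miR-21.

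Of the 328 microRNAs abundant enough to test, 133 differed between the stages at an adjusted p under 0.05 (40.5%), by the quasi-likelihood test of edgeR with Benjamini-Hochberg adjustment. Of these, 60 rose at organ formation (18.3% of those tested) and 73 fell (22.3%). Of the 127 tested by name, 28 rose and 31 fell, and of the 201 tested predicted ones 32 rose and 42 fell. Counts of calls in the lists below are to be read beside those of the 127. The libraries of the stages did not overlap for 55 of the 60 that rose and for 62 of the 73 that fell, against 147 of all 328 tested. The median log2 fold change was 0.0 over all tested, of which 32 had no count in the 6 libraries, −0.52 over those with a count there and −0.24 over those known by name. When predicted microRNAs absent from a library's list were taken as 4 counts instead of 0, 69 rose and 52 fell, so that rises made up 57.0% of the calls, against 45.1% with them at 0.

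miR-430 was the most abundant microRNA at organ formation and miR-738 at cleavage. The share of miR-430 was 35.5%, 35.9% and 28.0% of counts at organ formation, against 0.348%, 1.55% and 0.174% at cleavage. Its mean share was 33.2% ± 4.44 at organ formation and 0.691% ± 0.75 at cleavage (SD, n = 3 each), a difference of 32.5 percentage points with no overlap. miR-738 took 21.8%, 11.2% and 12.0% of counts at organ formation, against 37.3%, 47.3% and 76.1% at cleavage. That is 15.0% ± 5.91 at organ formation and 53.6% ± 20.1 at cleavage (SD, n = 3 each), again with no overlap. For both shares the two-sided exact permutation p was 0.1, the smallest that 3 against 3 libraries allow. The 10 most abundant microRNAs of a library held 73.9% ± 5.46 of its counts at organ formation and 73.3% ± 11.1 at cleavage (exact permutation p = 1.0, n = 3 each). MicroRNAs known by name held 88.5% ± 0.956 at organ formation and 90.3% ± 3.07 at cleavage (exact permutation p = 0.6, n = 3 each). As a share of the totals behind the deposited TPM values, which include counts outside the lists, the order of the stages turned: named microRNAs held 73.6%, 79.3% and 79.8% at organ formation, against 72.3%, 66.6% and 62.1% at cleavage, with no overlap.

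**Figure D1:**
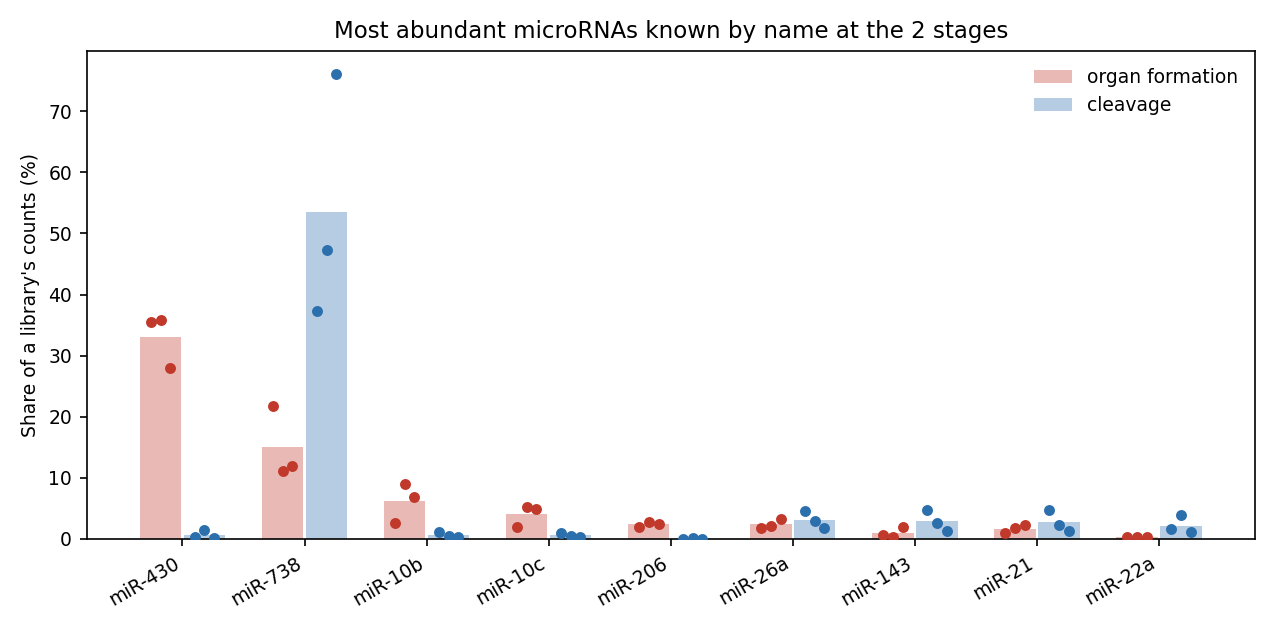
Share of each library's counts (%, vertical axis) for the 9 microRNAs known by name that were among the 6 most abundant at organ formation or at cleavage. Bars are means of 3 libraries and points are libraries; miR-430 lies at 28.0% to 35.9% at organ formation, above 0.174% to 1.55% at cleavage, while miR-738 lies lower at organ formation in every library.

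After miR-430 and miR-738, the list of abundant microRNAs differed between the stages. At organ formation miR-10b held 6.17% ± 3.23 of the counts, the predicted S1 4.41% ± 1.06, miR-10c 4.04% ± 1.8 and miR-206 2.42% ± 0.426 (SD, n = 3). At cleavage miR-26a followed miR-738 with 3.12% ± 1.44, then miR-143, a smooth muscle microRNA, with 2.89% ± 1.75, miR-21 with 2.8% ± 1.74, miR-22a with 2.2% ± 1.47 and S1 with 2.2% ± 0.896 (SD, n = 3). S1 had 3876, 3143 and 4513 counts at organ formation, against 2086, 3033 and 1870 at cleavage, and did not pass the test (log2 fold change 0.83, SE 0.49, adjusted p = 0.18). miR-26a had 1432, 1320 and 4543 counts at organ formation, against 6306, 2769 and 1810 at cleavage, and miR-21 had 812, 1087 and 3299 counts at organ formation, against 6395, 2235 and 1343 at cleavage. Neither passed the test (adjusted p = 0.248 for miR-26a and 0.129 for miR-21), and the libraries of the stages overlapped.

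In the test across all microRNAs, counts were scaled with TMM factors, which correct a library's total for a few very abundant RNAs, and are given as TMM-scaled CPM, the counts in each 1000000 of the corrected total. On that scale miR-430 averaged 200100 ± 39120 CPM at organ formation and 3748 ± 2886 CPM at cleavage (SD, n = 3 each). Its log2 fold change was 5.74 (SE 0.80, adjusted p = 0.000178), and 6.59 without cleavage replicate 2. miR-738 averaged 88610 ± 27690 CPM at organ formation and 437700 ± 367400 CPM at cleavage (SD, n = 3 each), a difference of −2.30 in log2 units (SE 0.78, adjusted p = 0.0327). The call of miR-738 rested on several libraries: its adjusted p was 0.0552, 0.088 and 0.0902 without organ formation replicates 1, 2 and 3 in turn, and 0.165 without cleavage replicate 3, at a log2 fold change of −1.35.

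**Figure D2:**
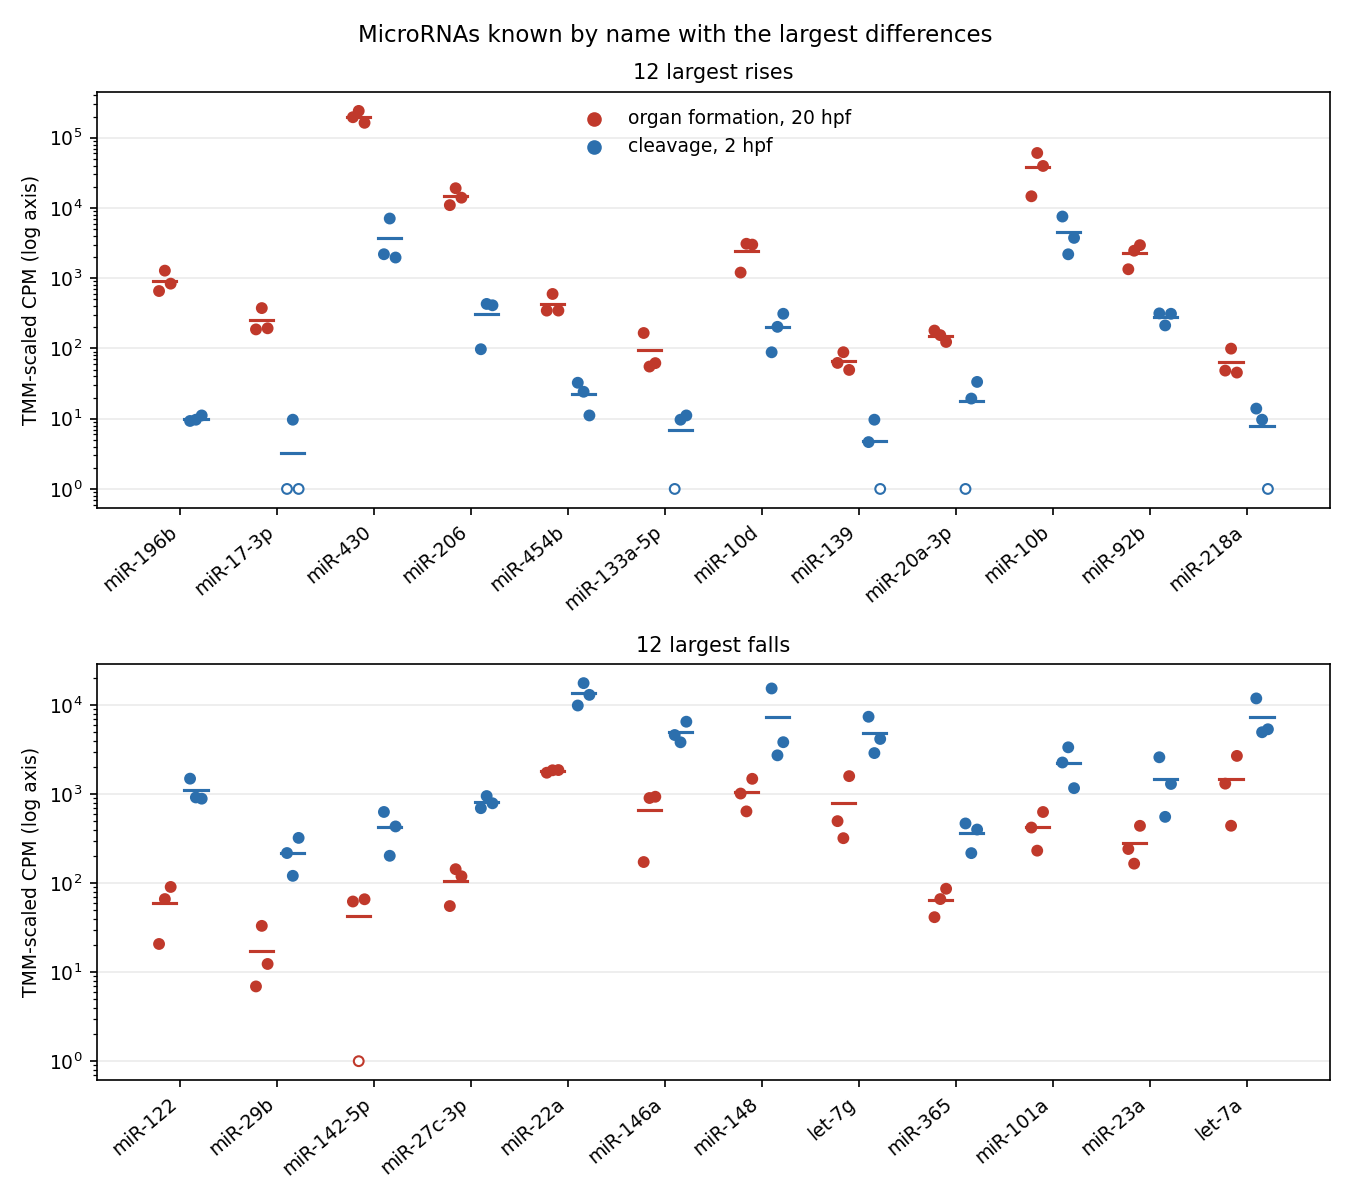
TMM-scaled CPM (log axis) in each library for the 12 largest rises and the 12 largest falls among microRNAs known by name that passed the test with no overlap between stages. Points are libraries, short lines are means, and open points are libraries with 0 counts drawn at 1; miR-196b lies at 657 to 1282 CPM at organ formation, against 9.29 to 11.1 CPM at cleavage.

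All 5 tested members of the Hox cluster list rose, with a median log2 fold change of 3.09. miR-10 and miR-196 are encoded within the Hox clusters, whose genes lay out the head-to-tail axis, and miR-196 lies at a more posterior position. miR-196b had 95, 116 and 203 counts at organ formation, against 2, 2 and 1 at cleavage. Its log2 fold change of 6.54 (SE 0.67, adjusted p = 1e-05) was the largest rise of a microRNA known by name. miR-196a, with 101, 98 and 161 counts at organ formation, against 66, 19 and 10 at cleavage, rose by 2.25 (SE 0.47, adjusted p = 0.00283). Cleavage replicate 1 was the highest of the cleavage libraries for miR-196a, and without it the log2 fold change was 2.92 (adjusted p = 0.000186).

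The abundant members of the same list were miR-10b and miR-10c. miR-10b had 2123, 5489 and 9615 counts at organ formation, against 1627, 453 and 337 at cleavage, and rose by 3.09 (SE 0.73, adjusted p = 0.00535). miR-10c had 1578, 3223 and 6838 counts at organ formation, against 1342, 511 and 318 at cleavage, and rose by 2.61 (SE 0.54, adjusted p = 0.00283). Organ formation replicate 1 was the lowest organ formation library for both after scaling, at 14680 CPM of miR-10b, against 60660 and 39650 CPM in replicates 2 and 3, and it still lay above the highest cleavage library, at 7555 CPM. miR-10d, with 174, 280 and 730 counts at organ formation, against 19, 42 and 28 at cleavage, rose by 3.62 (SE 0.75, adjusted p = 0.00283). Together the Hox cluster microRNAs held 10.9% ± 5.19 of the counts at organ formation and 1.34% ± 0.814 at cleavage (SD, n = 3 each).

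Of the 5 tested muscle microRNAs, 3 rose and none fell, with a median log2 fold change of 2.22. miR-206, which is made in skeletal muscle and its precursors, had 1588, 1729 and 3401 counts at organ formation, against 21, 89 and 37 at cleavage. It rose by 5.56 (SE 0.88, adjusted p = 0.000413) and made up nearly the whole of the list's share, 2.59% ± 0.393 at organ formation and 0.0976% ± 0.0782 at cleavage (SD, n = 3 each). miR-133a, a microRNA of skeletal and heart muscle that lies beside miR-1 in vertebrate genomes, was counted on both arms of its precursor. miR-133a-3p had 37, 23 and 124 counts at organ formation, against 9, 21 and 7 at cleavage, and rose by 2.22 (SE 0.78, adjusted p = 0.0366). That call was lost whichever of the 6 libraries was left out, with adjusted p of 0.0502 to 0.109. miR-133a-5p had 44 counts at organ formation, against 3 at cleavage, a scaled ratio of 15.7 with a 95% exact counting interval of 5.04 to 79.1 (adjusted p = 0.0228). Without organ formation replicate 1 its adjusted p was 0.0688, and without cleavage replicate 1 it was 0.0638. miR-1, with 73, 25 and 196 counts at organ formation, against 33, 59 and 13 at cleavage, did not pass (log2 fold change 1.44, adjusted p = 0.063), nor did miR-499 of slow and heart muscle (1.70, adjusted p = 0.171).

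The miR-17-92 cluster and its paralogs, known in mammals for promoting cell proliferation, had 12 tested members, of which 6 rose and none fell (median log2 fold change 1.45). miR-92b had 194, 223 and 717 counts at organ formation, against 68, 44 and 28 at cleavage, and rose by 3.01 (SE 0.70, adjusted p = 0.00491). miR-17-5p had 281, 131 and 198 counts at organ formation, against 29, 67 and 26 at cleavage, and rose by 2.49 (SE 0.62, adjusted p = 0.00691). miR-363, from a paralogous cluster, had 606, 621 and 1578 counts at organ formation, against 354, 338 and 138 at cleavage, and rose by 1.87 (SE 0.43, adjusted p = 0.00474). The libraries of the stages were apart for all 3. miR-92a, the most abundant member, had 1182, 1031 and 2436 counts at organ formation, against 1193, 1034 and 535 at cleavage, with scaled values apart but no call (0.84, SE 0.37, adjusted p = 0.0806). miR-20a-5p rose by 1.89 (SE 0.59, adjusted p = 0.0228), and the call was lost without organ formation replicate 1 (0.0823), cleavage replicate 1 (0.0805) or cleavage replicate 3 (0.0682), while the log2 fold change was 2.73 without cleavage replicate 2. Among members with no call, miR-18c passed as a rise without cleavage replicate 2 (1.82, adjusted p = 0.0163, against 0.74 and 0.299 with all libraries), and miR-19d as a fall without organ formation replicate 1 (−1.53, adjusted p = 0.0424, against −0.94 and 0.124 with all libraries). The list held 4.49% ± 0.0197 of the counts at organ formation and 2.05% ± 0.92 at cleavage (SD, n = 3 each).

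Other rises were in small families. miR-222, which in human cells targets the cell cycle inhibitor p27, had 341, 562 and 1269 counts at organ formation, against 186, 138 and 76 at cleavage, and rose by 2.54 (SE 0.49, adjusted p = 0.00171). Its neighbour miR-221 rose by 1.35 (SE 0.44, adjusted p = 0.0274), a call lost without organ formation replicate 2 (adjusted p = 0.128) and without cleavage replicates 1, 2 or 3 (0.0517, 0.0682 and 0.0554). miR-454b, which shares its seed with the miR-130 family, had 50, 54 and 84 counts at organ formation, against 7, 5 and 1 at cleavage, and rose by 4.19 (SE 0.97, adjusted p = 0.00486). The libraries of the stages were apart for all of these. miR-139 had 29 counts at organ formation, against 3 at cleavage, a scaled ratio of 10.4 with an exact counting interval of 3.21 to 53.1 (adjusted p = 0.00396). The fitted log2 fold change of miR-139 was 3.60, and 4.45 without cleavage replicate 2. miR-218a, encoded in the Slit genes and known from motor neurons, had 7, 9 and 11 counts at organ formation, against 3, 2 and 0 at cleavage, and rose by 2.85 (SE 0.90, adjusted p = 0.0234). Its adjusted p was 0.0702 without organ formation replicate 2 and 0.0527 without cleavage replicate 3.

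In the miR-181 family, known in mice from lymphocyte development, 2 of the 3 tested members rose. miR-181b had 284, 168 and 435 counts at organ formation, against 171, 105 and 48 at cleavage, and rose by 1.61 (SE 0.46, adjusted p = 0.0169). Its call was lost without cleavage replicate 3 (adjusted p = 0.051). miR-181c rose by 1.85 (SE 0.63, adjusted p = 0.0337), a call lost whichever library was left out, at adjusted p of 0.0502 to 0.102. miR-181a, the abundant member, averaged 6315 ± 1256 CPM at organ formation and 5631 ± 1037 CPM at cleavage (SD, n = 3 each), with overlapping libraries and no call (adjusted p = 0.81).

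Among the brain microRNAs, 3 of 6 tested members rose and 1 fell, with a median log2 fold change of 1.29. Of the 11 members, 2 had no count at organ formation and 2 none at cleavage. miR-9, a microRNA of neural progenitors, was counted on both arms. miR-9-5p had 137, 89 and 918 counts at organ formation, against 35, 75 and 47 at cleavage, and rose by 2.46 (SE 0.78, adjusted p = 0.0238). miR-9-3p had 189, 147 and 704 counts at organ formation, against 53, 95 and 29 at cleavage, and rose by 2.5 (SE 0.76, adjusted p = 0.0203). Organ formation replicate 3 was the highest in both arms. Without it the adjusted p was 0.131 for miR-9-5p, at a log2 fold change of 1.48, and 0.0598 for miR-9-3p. Without cleavage replicate 1 it was 0.0755 for miR-9-5p and 0.0655 for miR-9-3p. The call was also lost without cleavage replicate 2 for miR-9-5p (0.0527) and without cleavage replicate 3 for miR-9-3p (0.0562). miR-128, a microRNA of neurons in mammals, had 156, 67 and 475 counts at organ formation, against 850, 569 and 357 at cleavage, and fell by 1.49 (log2, SE 0.34, adjusted p = 0.00474) with the scaled libraries apart. miR-153b, also neuronal in mammals, rose by 1.49 (SE 0.53, adjusted p = 0.0373), a call lost in 5 of the 6 omissions of a library, at adjusted p up to 0.107. miR-137, with 4 counts in all at organ formation and 17 at cleavage, passed as a fall only without cleavage replicate 3 (adjusted p = 0.0492, against 0.066 with all libraries).

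**Figure D3:**
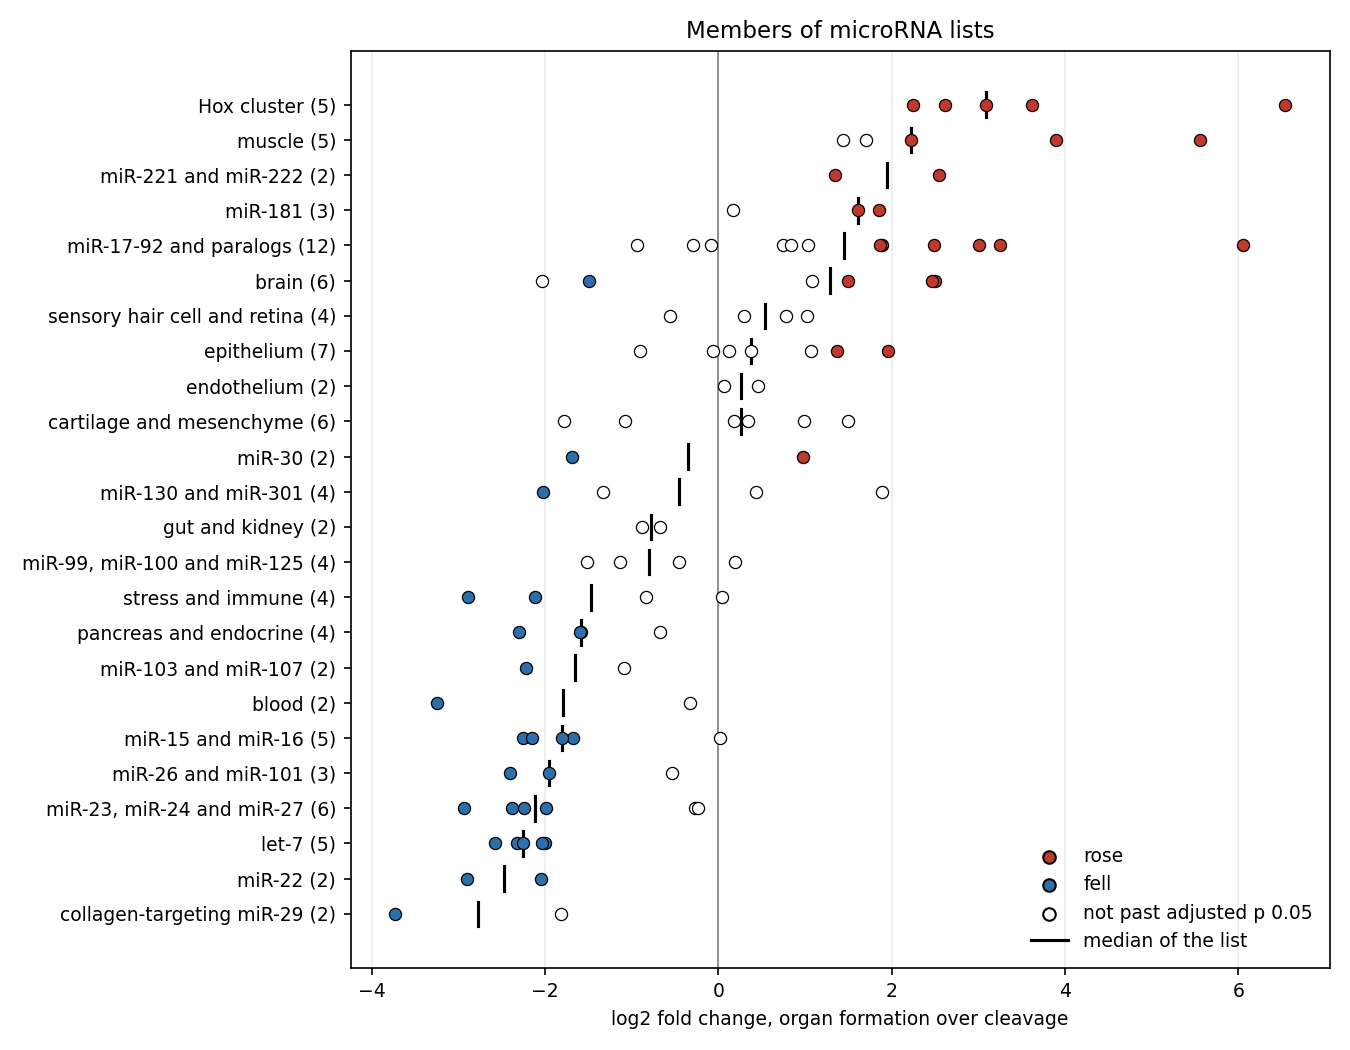
Log2 fold change, organ formation over cleavage (horizontal axis), of every tested member of the 24 lists with at least 2 tested members, with the number tested in brackets. Filled points passed the test (red rose, blue fell), open points did not, and vertical lines are list medians; all 5 Hox cluster points lie between 2.25 and 6.54 and all 5 let-7 points between −2.58 and −2.0.

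Of 7 tested epithelial microRNAs, 2 rose and none fell (median log2 fold change 0.38, and −0.04 without cleavage replicate 1). Among all 127 tested by name, 28 rose and 31 fell. miR-205, made in stratified epithelia, had 512, 283 and 708 counts at organ formation, against 276, 323 and 78 at cleavage, and rose by 1.37 (SE 0.40, adjusted p = 0.0194). That call was lost without cleavage replicate 1 (0.0536) or cleavage replicate 3 (0.062). miR-203b-5p, from a precursor known from the epidermis, rose by 1.96 (adjusted p = 0.0481) on 49 counts at organ formation, against 13 at cleavage. It passed only without cleavage replicate 2 among the 6 omissions, with adjusted p of 0.0652 to 0.119 in the rest. miR-203b-3p, its abundant arm, had libraries apart but no call (log2 fold change 1.07, adjusted p = 0.0945), although it passed without cleavage replicate 2 (1.71, adjusted p = 0.0257). miR-200a and miR-200b, which keep cells epithelial in mammals, did not pass, at −0.90 (adjusted p = 0.0579) and 0.12 (adjusted p = 0.871). miR-200a passed as a fall without organ formation replicate 1 (adjusted p = 0.024) or cleavage replicate 3 (adjusted p = 0.0401).

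Lists of several other tissues gave no call in either direction at an adjusted p under 0.05 with all libraries. These were the sensory hair cell and retina list (4 tested members), cartilage and mesenchyme (6), endothelium (2), gut and kidney (2), and the single tested members of the eye and smooth muscle lists and of miR-34. miR-183 of sensory hair cells had 246, 365 and 1079 counts at organ formation, against 751, 93 and 98 at cleavage (log2 fold change 1.02, adjusted p = 0.241). miR-184 of lens and cornea had 279, 405 and 946 counts at organ formation, against 558, 346 and 180 at cleavage (0.72, adjusted p = 0.117). In both cases cleavage replicate 1 overlapped the organ formation libraries. For miR-184, cleavage replicate 3, at 2004 CPM, also lay above organ formation replicate 1, at 1930 CPM. Without cleavage replicate 1 miR-183 passed as a rise (log2 fold change 2.06, adjusted p = 0.0269), and miR-184 passed without organ formation replicate 1 (1.0, adjusted p = 0.0471). In the cartilage list miR-140-5p and miR-455 passed as rises without cleavage replicate 2 (2.31 and 2.44, adjusted p = 0.0499 and 0.0436, against 1.5 and 0.99 with all libraries). miR-143 averaged 5710 ± 5018 CPM at organ formation and 18920 ± 9773 CPM at cleavage (SD, n = 3 each), with scaled libraries apart but no call (−1.73, adjusted p = 0.0646). Organ formation replicate 3 was the highest organ formation library, and without it miR-143 passed as a fall (−2.71, adjusted p = 0.0177). The miR-99, miR-100 and miR-125 group, often transcribed together with let-7, had 4 tested members and no call (median −0.80), but miR-125b, at −1.13, passed as a fall without organ formation replicate 3 (adjusted p = 0.0456) or cleavage replicate 2 (0.0365).

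All 5 tested members of let-7 fell, with a median log2 fold change of −2.26. let-7 is low in early embryos and stem cells of mammals and rises as cells differentiate, and it was found in worms as a timer of larval stages. let-7a had 190, 40 and 653 counts at organ formation, against 2567, 1027 and 482 at cleavage, and fell by 2.32 (log2, SE 0.58, adjusted p = 0.00715). let-7g had 72, 29 and 387 counts at organ formation, against 1597, 599 and 375 at cleavage, and fell by 2.58 (SE 0.60, adjusted p = 0.00474). Raw counts of both overlapped through organ formation replicate 3, and after scaling the libraries were apart. Without that library the log2 fold changes were −3.07 for let-7a and −3.56 for let-7g. let-7b, let-7i and let-7j lost the call without organ formation replicate 1 (adjusted p = 0.0945, 0.0626 and 0.0835), without organ formation replicate 2 (0.127, 0.0705 and 0.0829) and without cleavage replicate 1 (0.211, 0.0988 and 0.105), at log2 fold changes of −1.23, −1.55 and −1.35 in that last case, against −2.0, −2.26 and −2.03 with all libraries. let-7i and let-7j had −2.92 and −2.84 without organ formation replicate 3. The family held 0.602% ± 0.455 of the counts at organ formation and 2.67% ± 1.78 at cleavage (SD, n = 3 each). Reads shared by near-identical let-7 members could be split between them in a way that the sources used here do not give, so single members are uncertain.

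The largest fall of a microRNA known by name was that of miR-122, which in the adult makes up most of the microRNA of the liver. It had 3, 6 and 22 counts at organ formation, against 322, 190 and 80 at cleavage. The log2 fold change was −4.20 (SE 0.63, adjusted p = 0.000291), and the highest organ formation library, at 90.7 CPM, lay below the lowest cleavage library, at 890.6 CPM. miR-142-5p, made in blood cells, had 9, 0 and 16 counts at organ formation, against 136, 42 and 39 at cleavage, and fell by 3.25 (SE 0.79, adjusted p = 0.00661). The other tested blood microRNA, miR-144 of red cells, had 24 counts in all at organ formation and 27 at cleavage and no call (−0.33, adjusted p = 0.762), and the third member had no count at either stage. miR-7b of endocrine and neuronal cells had 9, 12 and 15 counts at organ formation, against 42, 125 and 40 at cleavage, and fell by 2.30 (SE 0.63, adjusted p = 0.0127). miR-375, the pancreatic islet microRNA, had scaled libraries apart but no call (−1.58, adjusted p = 0.0518), and passed as a fall without organ formation replicate 3, the highest organ formation library (−2.71, adjusted p = 0.00466). Where these microRNAs came from in the cleavage embryo was not tested.

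miR-22a was the most abundant microRNA known by name, after miR-738, among those that fell. It had 252, 168 and 453 counts at organ formation, against 2137, 3659 and 1174 at cleavage, and fell by 2.90 (log2, SE 0.33, adjusted p = 2.07e-05). Its scaled values were close together at organ formation, at 1823 ± 69.0 CPM, against 13570 ± 3914 CPM at cleavage (SD, n = 3 each). miR-146a, a brake on immune signalling in mammals, had 25, 82 and 227 counts at organ formation, against 996, 792 and 586 at cleavage, and fell by 2.89 (SE 0.58, adjusted p = 0.00257). The libraries of the stages were apart for both. miR-148 had 147, 58 and 361 counts at organ formation, against 3321, 565 and 345 at cleavage, and fell by 2.80 (SE 0.62, adjusted p = 0.00396). Cleavage replicate 1 held most of the miR-148 counts, and without it the log2 fold change was −1.73 (adjusted p = 0.0203).

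miR-29b, whose family targets collagen messages in mammals, had 1, 3 and 3 counts at organ formation, against 47, 25 and 29 at cleavage, and fell by 3.73 (SE 0.75, adjusted p = 0.00257), or by 4.47 without organ formation replicate 2. Its relative miR-29a did not pass (−1.82, adjusted p = 0.1) except without organ formation replicate 3 (adjusted p = 0.0378). miR-101a, which in human cells targets the chromatin enzyme EZH2, had 61, 21 and 153 counts at organ formation, against 489, 695 and 105 at cleavage, and fell by 2.40 (SE 0.52, adjusted p = 0.00339). miR-365 had 6, 6 and 21 counts at organ formation, against 101, 45 and 36 at cleavage, and fell by 2.47 (SE 0.53, adjusted p = 0.00334). For all 3 that fell the scaled libraries of the stages were apart. In the list of miR-26 and miR-101, 2 of 3 tested members fell (median −1.95), and the fall of miR-101b was lost without organ formation replicate 3 (adjusted p = 0.0517) or cleavage replicate 2 (0.0502).

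Further lists held falls that rested on 1 library or more, while 31 of all 127 microRNAs tested by name fell. Both tested members of miR-22 fell, and miR-22b, at −2.05, lost its call without organ formation replicates 1 or 2 (adjusted p = 0.11 and 0.108) and without cleavage replicate 1 (0.144, log2 fold change −1.27), while it was −2.99 without organ formation replicate 3. Of 4 stress and immune microRNAs 2 fell (median −1.48), and miR-155, at −2.12, passed only without organ formation replicate 3 or cleavage replicate 2, with −1.47 without cleavage replicate 1. Of 4 pancreas and endocrine microRNAs 2 fell (median −1.59), and miR-7a, at −1.60, passed only without organ formation replicate 1 or cleavage replicate 2. Of the pair miR-103 and miR-107, miR-107 fell by 2.22 (adjusted p = 0.0306), a call lost without organ formation replicates 2 or 3 (0.0862 and 0.0739) and without cleavage replicates 1 or 2 (0.0507 and 0.103), at −1.59 without cleavage replicate 2. Of 4 members of miR-130 and miR-301, miR-130a fell by 2.02 on 8 counts at organ formation, against 34 at cleavage (adjusted p = 0.0446), and passed only without cleavage replicate 2. No member of the gonad list was among the microRNAs known by name.

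In the miR-23, miR-24 and miR-27 group, which lie in shared clusters in mammals, 4 of 6 tested members fell and none rose (median −2.12). miR-27c-3p had 8, 13 and 29 counts at organ formation, against 150, 197 and 71 at cleavage, and fell by 2.94 (SE 0.39, adjusted p = 9.48e-05). miR-23a, miR-24 and miR-27a fell by 2.38, 1.99 and 2.24 (log2, adjusted p = 0.0196, 0.0434 and 0.0344). All 3 had their highest count in cleavage replicate 1, at 560, 711 and 658 counts, against 65 to 117 in the other cleavage libraries. Without that library none of the 3 passed (log2 fold changes of −1.77, −0.89 and −1.14, adjusted p = 0.0769, 0.337 and 0.207), nor without organ formation replicate 1 (0.0574, 0.111 and 0.106) or replicate 2 (0.0665, 0.127 and 0.105). Without organ formation replicate 3 the log2 fold change of miR-27a was −3.04. miR-27d, the most abundant member, averaged 4109 ± 1646 CPM at organ formation and 4855 ± 3514 CPM at cleavage (SD, n = 3 each) with no call (adjusted p = 0.762).

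The miR-15 and miR-16 family, which restrains the cell cycle in mammals, had 5 tested members, of which 4 fell and none rose (median −1.80). miR-16b had 111, 152 and 431 counts at organ formation, against 1509, 1037 and 603 at cleavage, and fell by 2.15 (SE 0.41, adjusted p = 0.00167) with the libraries apart. The other 3 lay at 138 counts or fewer in every library and each lost its call in at least 2 of the 6 omissions, with adjusted p of up to 0.0975 for miR-15a, 0.135 for miR-16c and 0.141 for miR-16a. Without cleavage replicate 2, where both were highest, miR-15a had a log2 fold change of −1.37, against −2.26 with it, and miR-16c −1.12, against −1.80 with it. Without cleavage replicate 1 miR-15a had −2.85. Members of 1 family also moved in opposite directions. miR-30d rose by 0.98 (SE 0.27, adjusted p = 0.0133), at 13340 ± 1952 CPM at organ formation and 6752 ± 779 CPM at cleavage (SD, n = 3 each). miR-30b fell by 1.69 (SE 0.46, adjusted p = 0.0121), at 213 ± 86.4 CPM at organ formation and 686 ± 339 CPM at cleavage (SD, n = 3 each). Both miR-30 calls were kept in the 6 omissions of a library. Neither was kept with library totals or the TPM totals in place of TMM factors, with no filter on low counts, or with a replicate block in the 2 stages alone. The call of miR-30d was also lost in a fit of the 2 stages alone, and that of miR-30b with unlisted values taken as 4 counts.

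Ratios between 2 members of a family within a library do not depend on how libraries are scaled. Families were grouped here by microRNA number, not by seed, so the pairs include the 5p and 3p arms of miR-9, miR-126 and miR-199. Among 34 such pairs in 17 families with at least 5 counts in every library, 13 had ratios that did not overlap between the stages. The arms of miR-199 are among these 13. For each the exact two-sided permutation p was 0.1, the smallest possible with 3 against 3 libraries, and 0.262 after Benjamini-Hochberg adjustment over the pairs. The log2 ratio of miR-27d to miR-27c-3p was 5.29 ± 0.24 at organ formation and 2.35 ± 1.22 at cleavage, and that of miR-30d to miR-30b 6.04 ± 0.53 at organ formation and 3.4 ± 0.65 at cleavage (SD, n = 3 each). miR-23b stood above miR-23a at organ formation, with a log2 ratio of 0.75 ± 0.77, and below it at cleavage, with −1.59 ± 0.71 (SD, n = 3 each). miR-92b stayed below miR-92a at both stages, with −2.19 ± 0.42 at organ formation and −4.31 ± 0.22 at cleavage (SD, n = 3 each). For miR-181b against miR-181a the log2 ratio was −1.74 ± 0.32 at organ formation and −3.22 ± 0.11 at cleavage, and for miR-200b against miR-200a −0.13 ± 0.23 at organ formation and −1.16 ± 0.10 at cleavage (SD, n = 3 each). miR-10b against miR-10c changed little, with 0.56 ± 0.18 at organ formation and 0.06 ± 0.23 at cleavage (SD, n = 3 each).

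**Figure D4:**
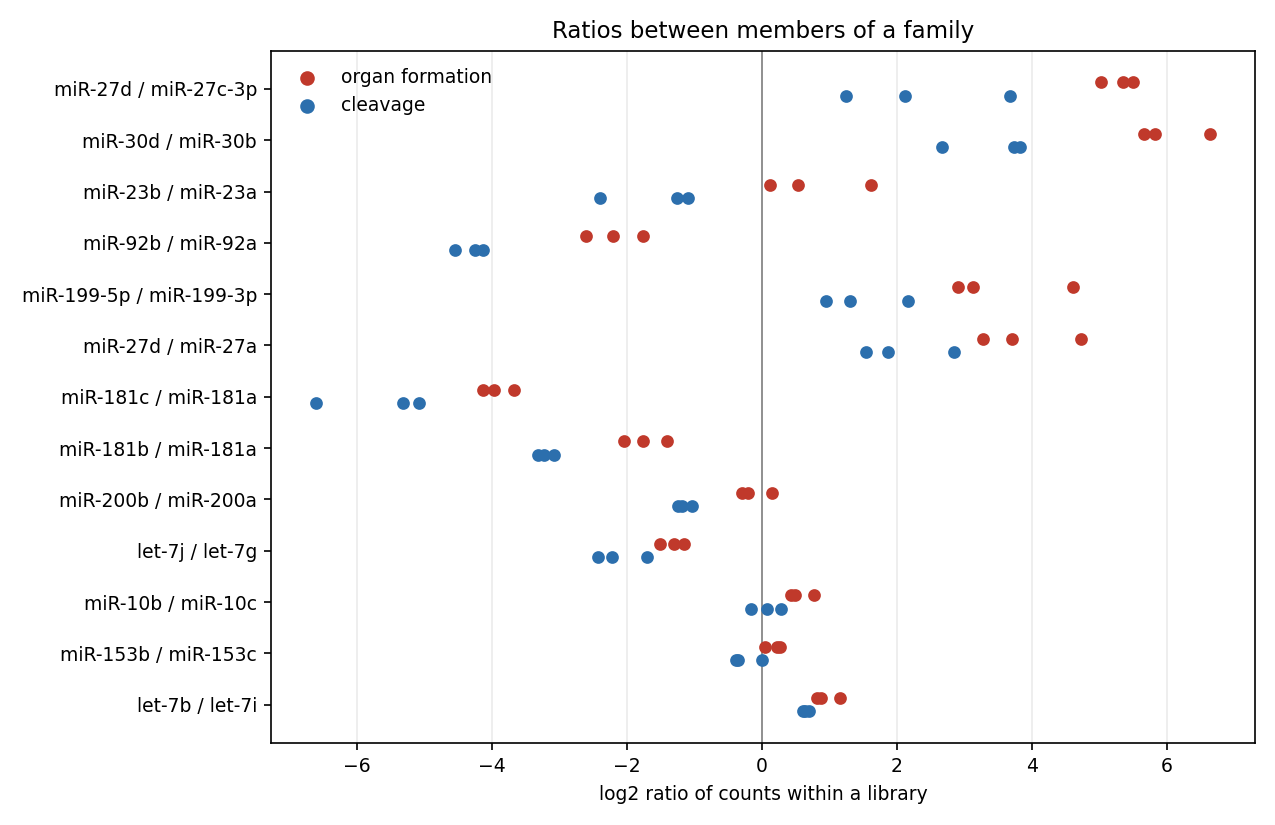
Log2 ratio of the counts of 2 members of a family within each library (horizontal axis) for the 13 of 34 pairs whose ratios did not overlap between the stages. Families are grouped by microRNA number, and the miR-199 pair is the 5p and 3p arms. Each point is a library, with organ formation above cleavage in each row; the ratio of miR-23b to miR-23a lies above 0 in the organ formation libraries and below 0 in the cleavage libraries.

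A precursor can give a microRNA from each of its arms, named 5p and 3p. Among microRNAs known by name, 5 precursors had both arms tested with at least 1 call. Arms present only as predicted sequences were not matched to precursors, so other differences between arms may be missed. Precursors with no call on either arm were left out. Of these, miR-199 had a log2 ratio of 5p to 3p of 3.55 ± 0.92 at organ formation and 1.47 ± 0.63 at cleavage (SD, n = 3 each), with libraries apart. For miR-126 the log2 ratio of 3p to 5p was 1.54 ± 0.3 at organ formation and 1.3 ± 0.45 at cleavage (SD, n = 3 each), with overlap. For miR-17 the 3p arm had 27, 34 and 47 counts at organ formation, against 0, 2 and 0 at cleavage, a scaled ratio of 57.9 with an exact counting interval of 15.6 to 484 (adjusted p = 0.000199, and 7.13e-05 without cleavage replicate 2, which held both counts). It held 15.0% of the precursor's counts at organ formation (exact 95% interval 12.5 to 17.9) and 1.61% at cleavage (0.196 to 5.7), with libraries summed. By library it was 8.77%, 20.6% and 19.2% at organ formation, against 0.0%, 2.9% and 0.0% at cleavage, with no overlap. For miR-20a the 3p arm held 4.44% at organ formation (3.48 to 5.58) and 1.34% at cleavage (0.539 to 2.73), and miR-20a-3p, with 26, 14 and 30 counts at organ formation, against 0, 4 and 3 at cleavage, rose by 3.25 (SE 0.89, adjusted p = 0.0127), or by 2.52 and 3.99 without cleavage replicates 1 and 3. By library the miR-20a share was 3.42%, 4.29% and 6.12% at organ formation, against 0.0%, 1.08% and 5.36% at cleavage, so the stages overlapped through cleavage replicate 3, and without that library the cleavage share was 0.855%. The intervals cover counting error only. In the other 3 precursors the intervals of the stages overlapped: the 3p share was 47.6% at organ formation and 53.0% at cleavage for miR-9, 80.7% at organ formation and 92.5% at cleavage for miR-133a, and 96.0% at organ formation and 98.1% at cleavage for miR-203b.

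Over the 6 stages of the series, the microRNAs that differed between organ formation and cleavage followed several courses in TMM-scaled CPM. These courses depend on the TMM factors, which were 0.2828, 0.6375 and 0.7143 at gastrulation, against 1.814, 1.489 and 1.718 at organ formation. At blastocyst the factors were 0.196, 0.3768 and 0.4224, and miR-430 had a median of 1930000 CPM there. The median of miR-206 was 412 CPM at cleavage, 4250 CPM at blastocyst and 3470 CPM at gastrulation, then 14000 CPM at organ formation, 28200 CPM at hatching and 26000 CPM at the larval stage. miR-196b had its highest median at organ formation, at 837 CPM, against 78.0 at gastrulation and 463 at hatching, and the organ formation libraries (657 to 1280 CPM) lay above those of both neighbours. On this scale miR-17-3p was highest at gastrulation, with a median of 588 CPM. Its range there of 374 to 975 CPM overlapped the organ formation range of 187 to 376 CPM. As a share of library totals, its median was instead higher at organ formation than at gastrulation. Among those that fell, miR-22a had its lowest scaled median at organ formation, 1860 CPM, with 5420 CPM at hatching and 5940 CPM at the larval stage. As a share of library totals, miR-22a was lower at gastrulation than at organ formation. The scaled median of miR-122 was also lowest at organ formation, at 66.3 CPM, against 390 CPM at gastrulation and 292 CPM at hatching. On that scale its organ formation libraries did not overlap those of either neighbour. As shares of library totals, they overlapped those of gastrulation. miR-29b was lower still after organ formation, with medians of 1.04 CPM in hatching embryos and 2.11 CPM in larvae. Comparisons with the other stages are given as values and were not tested here.

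**Figure D5:**
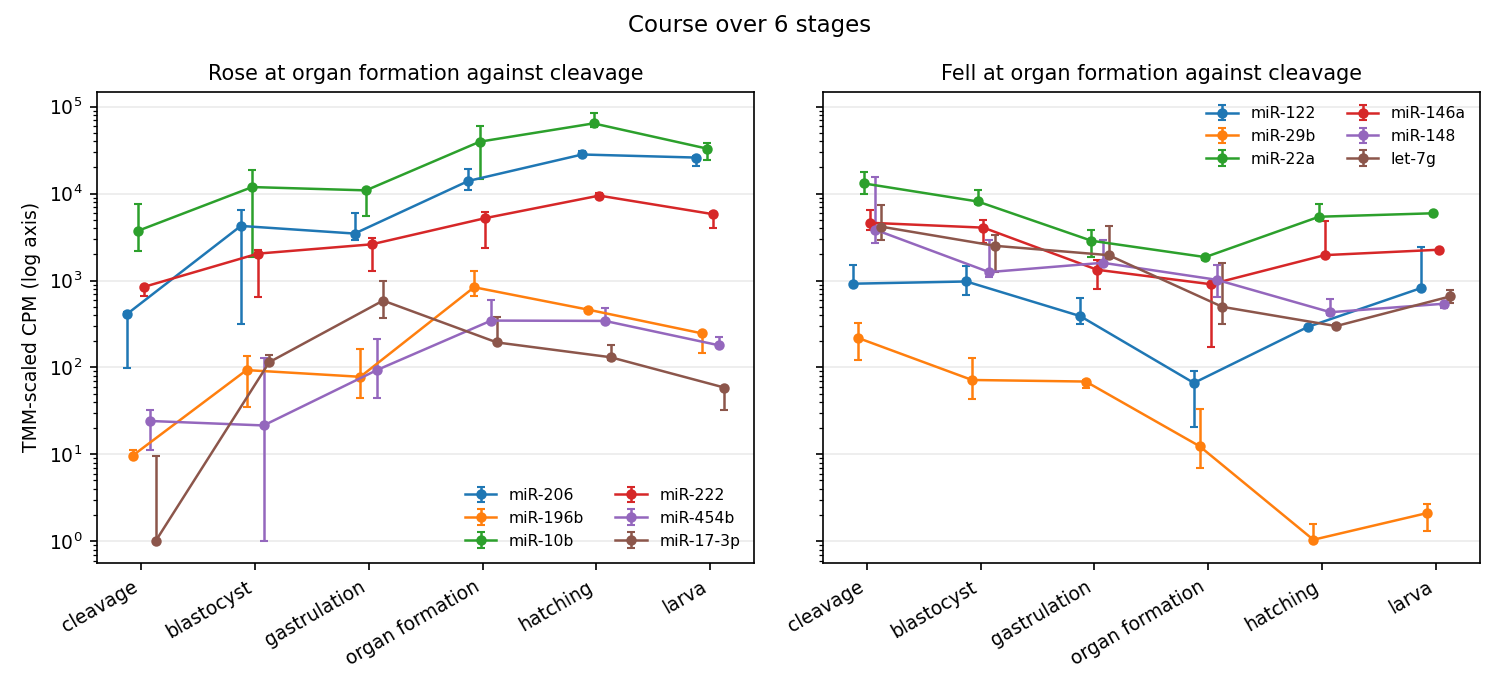
Median TMM-scaled CPM (log axis) at the 6 stages in order of development, with bars from the lowest to the highest of 3 libraries and values of 0 drawn at 1, for 6 microRNAs that rose at organ formation against cleavage and 6 that fell. On this scale miR-206 and miR-10b stay high to the larva, and miR-122 and miR-22a have their lowest medians at organ formation. The order of gastrulation and organ formation depends on the TMM factors.

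The predicted microRNAs that were listed differed between the stages, with more of them at cleavage. The lowest count of a predicted sequence in a library's list was 5, so an unlisted one was assumed to have 0 to 4 counts. That was not tested. A sequence of 20 bases had 47 and 94 counts in organ formation replicates 2 and 3 and was unlisted in replicate 1. There a form of it with 21 bases had 67 counts, and that form was unlisted in replicates 2 and 3. The tallies below are therefore of listed forms. The organ formation libraries together listed 141 predicted microRNAs and the cleavage libraries 609, of which 69 were listed at both stages. Of the cleavage ones, 431 were in 1 cleavage library and in no other of the 6 libraries, against 39 in 1 organ formation library only. With each library thinned to 60779 counts, 76.0, 71.0 and 82.1 predicted sequences reached 5 counts at organ formation, against 154, 241 and 105 at cleavage, with no overlap (means of 20 draws). In all 3 organ formation libraries and no cleavage library there were 22, and in all 3 cleavage libraries and no organ formation library 35. The 6 libraries shared 21.

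Of the 32 predicted microRNAs that rose, 24 were unlisted in every cleavage library, and of the 42 that fell, 38 were unlisted in every organ formation library. For these the fitted fold change has no meaning as a size, so a lower bound is given from 4 counts in each library that did not list the sequence. The bounds of R1 to R5 and F1 to F5 hold only if an unlisted sequence had at most 4 counts, which was not tested. R1 had 1575, 819 and 1497 counts at organ formation and was unlisted at cleavage, an at least 317-fold higher level (adjusted p = 0.0323), but its call was lost whichever library was left out, at adjusted p of 0.0517 to 0.0767. R2 had 112, 214 and 393 counts at organ formation and was unlisted at cleavage, at least 57.7-fold higher (adjusted p = 6.46e-05). R3, R4 and R5 were at least 27.5-fold, 27.2-fold and 18.4-fold higher (adjusted p = 0.00283, 0.000735 and 0.00391). R2 and R4, printed above, differ by T4C, the base at position 4 from the 5′ end, which lies in the seed.

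F1 was unlisted at organ formation, against 83, 274 and 162 counts at cleavage, at least 39.8-fold lower at organ formation (adjusted p = 0.000329). F2, also unlisted at organ formation, had 678, 779 and 879.5 CPM at cleavage and was at least 26.4-fold lower (adjusted p = 6.34e-06). F4 and F5 were at least 14.1-fold and 10.8-fold lower (adjusted p = 0.00149 and 0.0044). F3, at least 15.1-fold lower (adjusted p = 0.0406), lost its call whichever library was left out, at adjusted p of 0.0502 to 0.0973. Another predicted sequence, with 412 and 500 counts in cleavage replicates 1 and 2, was unlisted in the other 4 libraries. By the mean of the cleavage libraries, with replicate 3 taken as 0, it was at least 49.0-fold lower at organ formation. Its adjusted p of 0.0499 lay just under the threshold, and it is not among F1 to F5 because cleavage replicate 3 did not list it. Its bound rests on the same assumption about unlisted counts. When unlisted values were taken as 4 counts, 27 of the 32 rises and 27 of the 42 falls still passed. This setting does not cover a sequence that had more than 4 counts in a library that did not list it.

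Only 8 of the predicted microRNAs that rose and 4 of those that fell were listed at both stages, so that a fold change could be measured. Among them, a rise of 3.47 (log2) rested at cleavage on 12 counts in replicate 2 alone. Likewise, a fall of 4.43 rested at organ formation on 7 counts in replicate 3 alone. B1 had 7, 6 and 11 counts at organ formation, against 904, 573 and 381 at cleavage, a log2 fold change of −6.15 (adjusted p = 7.35e-07) that was steeper than that of any microRNA known by name that fell. B3 had 5, 10 and 24 counts at organ formation, against 474, 436 and 203 at cleavage, a log2 fold change of −4.76 (adjusted p = 1.54e-05). B2 had 152, 291 and 472 counts at organ formation, against 10, 12 and 7 at cleavage, and rose by 5.11 (adjusted p = 0.0031). In each of these the libraries of the stages were far apart.

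Some of the predicted sequences that passed were close variants of each other and moved the same way. The seeds below were picked because more than 1 sequence with them had passed, so their counts of calls are selected. Over all 201 tested predicted microRNAs, 32 rose and 42 fell. B5, B6 and B8, which share the seed CCATCGA, differ from B5 by T16C in B6 and by A20G in B8. B5 had 194, 200 and 511 counts at organ formation, against 24, 21 and 5 at cleavage (log2 fold change 4.37, adjusted p = 0.000735), and B6 142, 215 and 552 at organ formation, against 26, 28 and 14 at cleavage (3.78, adjusted p = 0.00111). B8 rose by 3.16 (adjusted p = 0.0188, and 0.054 without cleavage replicate 3), so that 3 of the 4 tested sequences with this seed rose. With the seed GTGCAAA, 2 of 3 tested sequences rose: B9 by 2.93 (adjusted p = 0.00427, and 1.99 at 0.0257 without organ formation replicate 1, its highest library) and B11 by 2.18 (adjusted p = 0.0169, with 0.0612 without organ formation replicate 2 and 0.0502 without cleavage replicate 2). They differ at 1 base, written from B11 to B9 as C13T. R1, V1, V2 and V3 share the seed AAGTGCT, for which 4 of 12 tested sequences rose, and the calls of V1 and V3, like that of R1, were lost whichever library was left out. A tested sequence with the seed AAGTGGT matches R1 outside the seed and rose (adjusted p = 0.00389), a call kept whichever library was left out. One with the seed AGGTGCT also matches R1 outside the seed and did not pass (adjusted p = 0.063). F5 and V4, with the seed GCAAGAT and differing by G21A, both fell. Such variants may share reads, which the sources used here do not settle, so they are not independent. Whether R1, V1, V2 and V3 belong to the family of miR-430 or of another microRNA known by name was not tested.

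Sequences that rose and sequences that fell also differed in make-up. A first base of T was found in 7 of the 32 that rose (21.9%) and in 27 of the 42 that fell (64.3%), against 92 of all 201 tested predicted microRNAs (45.8%). A length of 22 bases was found in 18 of those that rose (56.2%) and 12 of those that fell (28.6%), against 88 of all 201 (43.8%). Lengths of 21 bases or less were found in 4 of those that rose (12.5%) and 16 of those that fell (38.1%), against 61 of all 201 (30.3%). The median GC content was 45.5% in each set. Because variants of a sequence occur among them, these shares are given as a description with no test.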

How the data were processed

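Per the labels' protocols, RNA was extracted with TRIzol, adapters were ligated, and a HiSeq 2500 read 50 bp from 1 end of each fragment. For each library the authors deposited a table of unnormalized read counts by microRNA. The authors also deposited TPM values, which were used here only for the library totals that they imply. The authors used FastQC and edgeR, per the submitters' processing notes. Not given in the sources used here are the aligner, the genome build, the prediction program and the handling of shared reads.

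Tests used edgeR 4.0.16 in R 4.3.3: TMM factors, filterByExpr by stage (count minimum 10), 1 mean per stage over all 18 libraries, robust glmQLFit and glmQLFTest. The fit left 12 residual degrees of freedom, with a common BCV (edgeR's measure of spread between replicates) of 0.855. Benjamini-Hochberg adjustment ran over the 328 microRNAs tested, with a threshold of 0.05, and every adjusted p of a microRNA comes from this test. Standard errors were obtained by dividing the log2 fold change by the root of its F statistic. The code was tested on simulated data. Predicted sequences absent from a library's list were taken as 0. Shares and family ratios were compared by two-sided exact permutation tests in scipy 1.17.1.

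Sequences were copied from the count files. MicroRNAs were named by rule: the 12 largest rises and 12 largest falls by name with libraries apart, the 5 and 5 predicted ones described above, the 6 most abundant per stage, the 2 most abundant of each list, and both arms of precursors with a call. Other names belong to a list or family described or are marked as picked with their values in view. The comparison, its members and the lists were chosen with earlier results of these data known. Alternatives were other scalings and filters, DESeq2 1.42.0, fewer stages, unlisted values as 4 counts, each library left out, and the replicate number as a block; totals without miR-430 and miR-738 were added after seeing the data. Intervals of counts are exact 95% intervals. Without molecular identifiers, reads are not independent molecules, so these intervals cover only counting error.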

Additional observations from a re-analysis of the deposited data

Results flagged for a closer look

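The library totals implied by the TPM values exceed the counts that the deposited lists hold, so part of each library lies outside the lists. The unlisted part averaged 12.3% at organ formation and 25.6% at cleavage. It was 16.5%, 9.58% and 10.9% in the organ formation libraries, against 19.0%, 24.2% and 33.7% in the cleavage libraries, with no overlap between the stages. Predicted sequences below 5 counts are among what the lists leave out, and what else the unlisted part holds was not tested. This result was singled out because it lies in counts outside the lists, which entered the comparisons above only through the totals behind the TPM values.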

How the results depend on the processing

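Among 19 alternatives, 15 of the 59 calls by name were kept in every alternative that tested them: the rises of miR-10b, miR-10c, miR-10d, miR-17-3p, miR-17-5p, miR-92b, miR-196b, miR-206, miR-222, miR-363, miR-430 and miR-454b and the falls of miR-22a, miR-122 and miR-146a. In all 6 omissions of a library 31 were kept. The counts of 60 that rose and 73 that fell became 35 and 13 with no filter (2886 tested), 44 and 40 with the 2 stages alone (178 tested), 56 and 48 with the TPM totals, and 39 to 52 and 42 to 63 without 1 library. DESeq2 gave 75 and 73. RLE factors, singleton pairing of TMM and the TPM totals moved the median of all listed microRNAs by 0.2 to 0.294 on the log2 scale, unlisted values as 4 by 0.314 and no filter by 0.429, and totals without miR-430 and miR-738 by −0.142. The number of falling let-7 members, 5, was 2 with library totals, 1 with the TPM totals and 0 with no filter, each with a negative median. The miR-130 and miR-30 medians, −0.45 and −0.35, were 0.14 and 0.24 with no filter. Same-numbered libraries of the stages did not deviate together (correlations of −0.248, −0.0816 and 0.0119), and differently numbered ones gave −0.163 to 0.226. With 3 libraries a stage this check cannot settle whether the numbers pair them. With a replicate block, 51 rose and 47 fell in 18 libraries, and 39 rose and 40 fell with the 2 stages alone. The difference in the share of the 10 most abundant, 0.583 percentage points, ranged from −3.38 to 6.95 without 1 library, and that of named microRNAs, −1.77, was 10.6 as a share of the TPM totals. With unlisted values as 4, the sign turned for 10 of the 201 tested predicted microRNAs, 1 of them a called fall that then did not pass. Among the microRNAs known by name whose values were compared across the alternatives, signs turned for 6, none of which had a call. miR-144 had 0.13 with the TPM totals, 0.15 with no filter and 0.07 with unlisted values as 4. miR-27d had 0.05 with singleton pairing of TMM, 0.07 with the TPM totals, 0.11 with no filter, and −0.58 to 0.41 without 1 library. miR-126-5p had −0.04 with the replicate block, and −0.29 to 0.78 without 1 library. Without 1 library miR-182-5p ranged from −0.13 to 1.27, miR-200b from −0.14 to 0.4 and miR-199-5p from −0.03 to 0.95. The causes were not tested. Depth limits what can be said of sequences under about 10 counts.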
